A study of Homo sapiens with 8 samples.

Results

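The nuclear pore and its transport receptors carry RNA and protein between the nucleus and the cytoplasm. They were followed here as 57 genes of 19775 that had a probe set with 1 gene symbol: 29 genes of the nuclear pore complex, 24 importins and exportins, and 4 genes of the Ran cycle. Members were taken from a list of gene names matched to the annotation of the array's probe sets. That rule used no measured value, but the list was drawn up with earlier results of these data known. They had 165 such probe sets, and the brightest over the 8 arrays stood for its gene. The test covered 11865 genes and 56 of the 57 members. IPO11, an importin, was too dim, with a signal of 5.23 to 17.7 on the 8 arrays, and its other 3 probe sets carried several symbols.

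Expression was measured on HG-U133 Plus 2.0 arrays in cells labelled MM1S and OPM1. Both labels name established human lines of multiple myeloma, the malignancy of plasma cells. The 4 groups of 2 arrays each were MM1S treated with Zalypsis, MM1S control, OPM1 treated with Zalypsis and OPM1 control. Zalypsis, a DNA-binding compound derived from a marine product, was given at 5 nM, and treated cells were collected when 15 to 20% of them were dying. The labels do not say what the controls received or whether a group's arrays were made from different cultures. The p-values therefore reflect only how far these arrays scatter, and that scatter may be technical.

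Each nuclear pore is built from copies of a set of proteins called nucleoporins. Scaffold nucleoporins of the Y complex and the inner ring form its frame, membrane nucleoporins anchor it in the nuclear envelope, and nucleoporins rich in phenylalanine and glycine fill its channel. Importins carry cargo inward and release it on meeting Ran bound to GTP, whereas exportins bind their cargo together with Ran bound to GTP and release it in the cytoplasm. RCC1 loads Ran with GTP in the nucleus, and RANGAP1, helped by RANBP1, makes it hydrolyse that GTP outside. XPO1, the main export receptor for proteins, is the target of a drug used against myeloma.

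The labelled cell types were checked against plasma cell and B-lineage markers. SDC1, a defining plasma cell marker, had a signal of 2370 to 3443 on the MM1S arrays and of only 7 to 14 on the arrays labelled OPM1. The summed signal of 9 plasma cell markers was 4082 to 4539 on treated OPM1 arrays, 5364 to 6004 on OPM1 controls, 26717 to 27760 on treated MM1S arrays and 35156 to 37374 on MM1S controls, although CD38 was higher in OPM1 controls (400.1 and 578) than in MM1S controls (61.1 and 47.3). The 8 measured B-lineage markers summed to 4537 to 5520 on treated OPM1 arrays, most of it CD79A (4217 and 3243), and to 11158 to 12282 on OPM1 controls, with 317 to 418 on MM1S arrays. PAX5 was at 64.8 and 37.0 on treated OPM1 arrays and at 2883 and 3556 on OPM1 controls. The near absence of SDC1 and the bright PAX5 in OPM1 controls conflict with the plasma cell type that the label implies. Which cells these were was not tested. The cells are named here by their label only, and the part of these marker shifts in the results was not tested. Array medians lay between 23.0 and 24.8 and arrays of a group correlated at 0.988 to 0.993. OPM1 control 1 stood apart in its ratio of 3' over 5' signal, which was 2.26 for GAPDH and 5.80 for ACTB, with 0.963 to 1.06 and 1.78 to 2.62 on the other arrays.

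In MM1S, 23 of the 56 tested members fell with Zalypsis, 4 rose and 29 were not called. A gene was called at a Benjamini-Hochberg adjusted p under 0.05 in limma over all tested genes. Among all tested genes 38.3% were called, 21.7% lower and 16.6% higher, and for the members these shares were 41.1% and 7.14%. The median change of the members was -0.29 on the log2 scale, and that of all tested genes was 0.02. The falls were moderate, since only NDC1, IPO8, XPO4, NUP35 and NUP93 changed by more than 1 on that scale. By the 2-fold rule of the design text, applied to group means, 8 members were lower and 1 was higher, compared with 10.5% and 3.87% of all tested genes. The 4 members that rose were NUP58, NUP42, NUP50 and IPO13. Without MM1S Zalypsis 1, or without MM1S control 2, only 2 members were called higher: NUP50 was at 0.29 (adjusted p 0.317) and at 0.28 (adjusted p 0.217), and IPO13 at 0.28 (adjusted p 0.308) and at 0.31 (adjusted p 0.211).

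In OPM1, 43 of the 56 members fell, 9 rose and 4 were not called. In that line 64.5% of all tested genes were called, 39.0% lower and 25.5% higher, and for the members the shares lower and higher were 76.8% and 16.1%. By the 2-fold rule of the design text, applied to group means, 34 members were lower and 1 was higher, and 27.4% and 11.5% of all tested genes were. The median change of the members was -1.45, against -0.07 for all tested genes. NDC1, SEH1L, CSE1L, KPNA3 and XPO4 fell the most. SEC13, NUP58, POM121, NUP42, GLE1, NUP50, KPNA2, IPO13 and RANBP1 rose, and NUP54, IPO4, TNPO2 and RAN were not called. In bulk RNA of this kind, fewer cells of a type and less RNA per cell cannot be told apart.

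Labelling controls moved with the treatment in OPM1. For 4 probe sets of poly-A spike-in transcripts, put into the RNA ahead of labelling, the geometric mean was 1862 and 1349 after Zalypsis in OPM1, against 299.7 and 448 in OPM1 controls. A 28S ribosomal RNA probe set had 11465 and 9325 on the treated arrays and 1071 and 1327 on the controls. When OPM1 arrays were scaled by these spike-ins, all tested genes had a median of -1.72, 92.5% of them were called lower, and all 56 tested members were called lower, including the 9 that had risen. Relative to that median the members lay at -1.62, compared with -1.38 on the scale as deposited. The poly-A signal of the MM1S arrays, 19.7 to 25.7, was about the array median, so the same scaling bears little weight in that line. The part of the labelling controls in the results was not tested.

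Across the 2 lines, 23 members fell in both, or 41.1% of those tested, and 17.9% of all tested genes did so. NUP58, NUP42, NUP50 and IPO13 rose in both, or 7.14% of the members, and 9.62% of all tested genes did so. No member was called in opposite directions, while 1.85% of all tested genes were lower in OPM1 and higher in MM1S and 0.421% the reverse. Every member that was called in MM1S was thus called the same way in OPM1 in this fit, but not in every other setting. After quantile normalization IPO9 (0.28, adjusted p 0.0362) and NUP62 (0.36, adjusted p 0.01) had a called rise in MM1S, while their OPM1 falls stayed called. The mean of probe sets did the same for IPO9 (0.29, adjusted p 0.0265) and NUP160 (0.38, adjusted p 0.0078). With each line's arrays fitted alone, RANBP1 was called lower in MM1S (-0.31, adjusted p 0.038), while its OPM1 rise stayed called. A dimmer IPO9 probe set was also called in opposite directions, at 0.55 in MM1S and -0.85 in OPM1. The plot of the members by role shows both lines side by side.

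**Figure D1:**
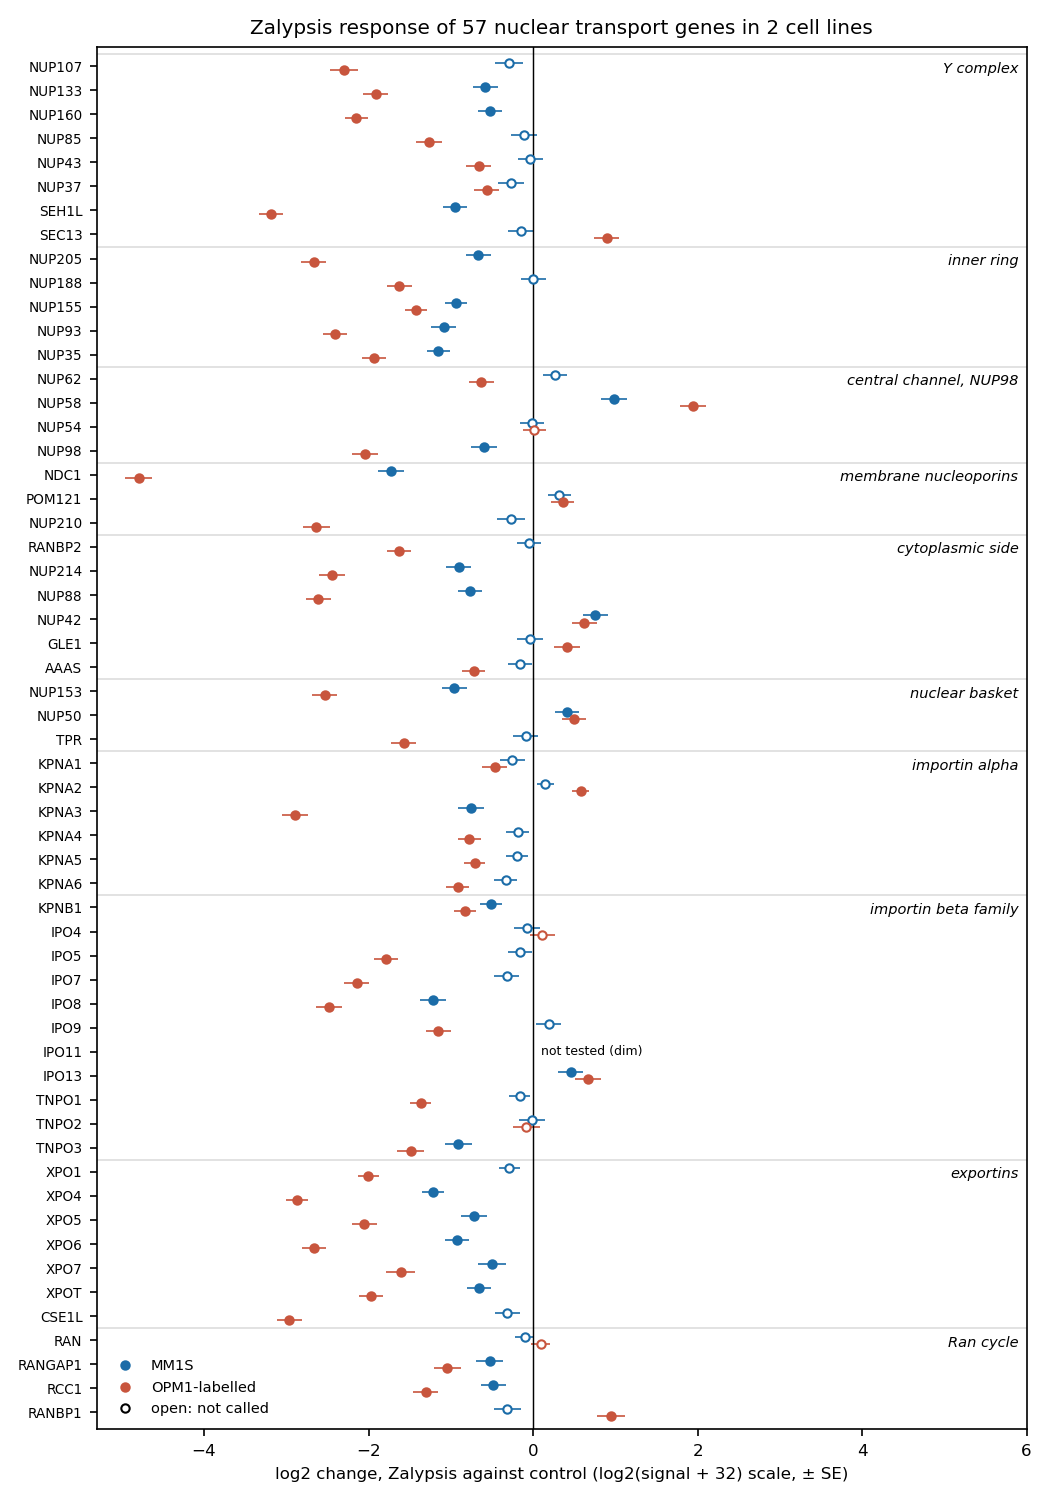
Log2 change of the 56 tested members (IPO11 is marked as not tested), Zalypsis against control, grouped by role, with MM1S and OPM1 in separate colours. Points are fitted changes, bars are standard errors and open points are members that were not called. Most OPM1 points lie left of the MM1S point of the same gene, with NDC1 farthest left at -4.80 and NUP58 farthest right at 1.95. After scaling to the poly-A spike-ins every tested member was lower in OPM1.

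The promoter windows of 4 members are shown because these were the pore gene and the receptor gene with the largest fall and the largest rise in OPM1. Each runs from 250 bases before to 50 bases after the gene's start, 5′ to 3′ on the gene's own strand, as RefSeq gives it on GRCh38.p14. Capitals mark matches, on either strand, to the E-box CACGTG, the NRF1 palindrome, the ETS site CCGGAAG or the CCAAT box.
NDC1, chr1:53838247-53838546, minus strand: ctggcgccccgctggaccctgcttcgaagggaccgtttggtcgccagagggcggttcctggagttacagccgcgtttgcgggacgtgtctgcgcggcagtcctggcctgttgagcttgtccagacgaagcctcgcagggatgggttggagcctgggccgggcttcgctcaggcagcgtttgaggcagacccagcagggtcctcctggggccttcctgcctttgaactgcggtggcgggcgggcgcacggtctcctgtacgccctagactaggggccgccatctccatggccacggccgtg
CSE1L, chr20:49046062-49046361, plus strand: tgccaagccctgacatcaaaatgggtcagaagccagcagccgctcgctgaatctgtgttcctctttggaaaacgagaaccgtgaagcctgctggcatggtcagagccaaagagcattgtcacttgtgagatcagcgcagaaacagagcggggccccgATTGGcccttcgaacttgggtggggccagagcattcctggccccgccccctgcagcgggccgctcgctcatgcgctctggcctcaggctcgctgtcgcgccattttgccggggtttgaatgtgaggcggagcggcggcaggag
NUP58, chr13:25301375-25301674, plus strand: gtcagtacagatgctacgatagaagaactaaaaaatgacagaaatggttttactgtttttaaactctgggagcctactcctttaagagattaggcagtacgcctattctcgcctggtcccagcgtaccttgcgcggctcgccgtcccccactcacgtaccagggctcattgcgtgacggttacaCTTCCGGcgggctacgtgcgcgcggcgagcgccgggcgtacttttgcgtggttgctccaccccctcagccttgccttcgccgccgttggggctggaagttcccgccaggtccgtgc
IPO13, chr1:43946700-43946999, plus strand: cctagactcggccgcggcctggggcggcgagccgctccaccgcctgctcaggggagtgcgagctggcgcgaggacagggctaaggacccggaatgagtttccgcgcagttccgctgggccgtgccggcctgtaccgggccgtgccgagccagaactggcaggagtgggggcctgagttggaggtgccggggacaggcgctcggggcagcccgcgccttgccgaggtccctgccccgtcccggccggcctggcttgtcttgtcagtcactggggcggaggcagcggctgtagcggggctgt
The windows of NDC1 and IPO13 held 0 matches. That of CSE1L held 1 CCAAT box and that of NUP58 held 1 ETS site, both on the opposite strand. A match is a description of letters only.

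Windows of 50 of the 57 members were in the table. The ETS site stood in 34.0% of these 50, compared with 19.7% of the 9637 windows of tested genes, and the split by class was 44.4% of pore genes and 20.0% of receptors. A CCAAT box stood in 42.0% of the members and in 37.2% of the tested genes. For the E-box these shares were 14.0% and 10.4%, and for the NRF1 site 6.0% and 2.36%.

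Among the 8 genes of the Y complex, the outer ring of the scaffold, 3 fell in MM1S (SEH1L, NUP160 and NUP133) and 7 fell in OPM1, where SEC13 rose on the deposited scale. SEH1L, which also serves in amino acid sensing, had a signal of 616 and 544 in treated MM1S and of 1220.4 and 1078 in MM1S controls, a log2 change of -0.95 ± 0.15 (adjusted p 3.3e-05), where ± is the SE with 2 arrays a group. In OPM1 its signal was 135 and 127 with Zalypsis and 1548 and 1354 without, a change of -3.19 ± 0.15 (adjusted p 1.4e-13). The treated arrays were below the controls in both lines. NUP107, a core member of the ring, had 836 and 724 in treated MM1S against 1093 and 849 in controls, a change of -0.30 ± 0.17 that was not called (adjusted p 0.186). In OPM1 it had 177 and 237 with Zalypsis and 1243 and 1041 without, and it fell by 2.30 (adjusted p 1.4e-10).

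SEC13, which the Y complex shares with the COPII coat of vesicles leaving the endoplasmic reticulum, went the other way in OPM1. Its signal was 848 and 833 in treated and 403 and 475 in control OPM1 cells, a rise of 0.89 ± 0.15 (adjusted p 2.6e-05). In MM1S it was 1234 and 1147 with Zalypsis and 1465 and 1196 without, and was not called (adjusted p 0.48). The OPM1 arrays did not overlap, whereas 1 treated MM1S array lay between the controls. The other 5 genes of the ring, NUP133, NUP160, NUP85, NUP43 and NUP37, fell in OPM1, with log2 changes between -2.15 (NUP160) and -0.56 (NUP37). Without MM1S Zalypsis 1 the MM1S value of NUP160 was -0.50 and not called (adjusted p 0.0577). NUP37 was no longer called in OPM1 without OPM1 control 2, where its change was -0.39 (adjusted p 0.0705), or after quantile normalization (-0.23, adjusted p 0.119). With the mean of probe sets NUP43 was at -0.03 in OPM1 (adjusted p 0.774), and NUP160 was called higher in MM1S, at 0.38 (adjusted p 0.0078).

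The inner ring, the scaffold layer that lines the channel, had all 5 genes called lower in OPM1 and 4 of 5 in MM1S. NUP93, which holds the layer together, had 194 and 205 in treated MM1S and 527 and 402 in MM1S controls, a change of -1.09 ± 0.15 (adjusted p 4.1e-06). Treated OPM1 cells had 78.7 and 84.8 and OPM1 controls 559 and 581, a change of -2.40 ± 0.15. All treated arrays of both lines were at 205 or below and all control arrays at 402 or above. NUP35, a small nucleoporin that touches the membrane, had 174 and 148 in treated MM1S and 411 and 381 in controls, and fell there, at -1.15 ± 0.14 (adjusted p 1.5e-06). NUP205, a large scaffold protein, had 173 and 186 in treated OPM1 and 1274 and 1349 in controls, a change of -2.67 ± 0.15 (adjusted p 2.3e-12), and 907 and 778 with 1474 and 1239.7 in treated and control MM1S, a change of -0.67 ± 0.15. Groups were apart in each case. NUP188 was the exception in MM1S, where its change was 0.00 ± 0.15 and was not called (adjusted p 0.994), although it fell in OPM1, at -1.63 ± 0.15.

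In the central channel, NUP58 was called higher in both lines, although its probe sets disagreed in OPM1. NUP58, which forms the channel lining with NUP62 and NUP54, had 239 and 201 in treated MM1S and 86.0 and 105 in MM1S controls, a change of 0.99 ± 0.15 (adjusted p 2.7e-05). In OPM1 it had 1487 and 1294 with Zalypsis and 371 and 305 without, a change of 1.95 ± 0.15 (adjusted p 4.4e-10). The 2 treated OPM1 arrays were the brightest of the 8. Another NUP58 probe set also rose in OPM1, at 1.03, while 2 more fell there, at -1.44 and -1.05. NUP62 was not called in MM1S (0.27 ± 0.15) and fell in OPM1 (-0.63 ± 0.15), a call lost with the mean of probe sets (-0.22, adjusted p 0.0584) and without _s_ and _x_ probe sets (-0.10, adjusted p 0.574). NUP54 was at -0.01 ± 0.14 and 0.02 ± 0.14, not called in either line by its brightest probe set. It was called higher in OPM1 after quantile normalization (0.24, adjusted p 0.0349) and with the mean of probe sets (0.60, adjusted p 0.0002). Without _s_ and _x_ probe sets NUP54 was called higher in MM1S (0.63, adjusted p 0.00075) and OPM1 (0.53, adjusted p 0.0018). Poly-A scaling called it lower in OPM1 (-2.02, adjusted p 1.8e-09). NUP98, a channel nucleoporin that also binds chromatin, had 305 and 276 in treated and 490.2 and 424 in control MM1S, a change of -0.60 ± 0.16 (adjusted p 0.0044). Without MM1S Zalypsis 2 it was not called, at -0.54, and NUP133 was also not called, at -0.49 (adjusted p 0.0647). In OPM1 NUP98 had 97.5 and 139.6 with Zalypsis and 559.9 and 609 without, a change of -2.05 ± 0.16 (adjusted p 2.5e-10), with no overlap between the groups.

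NDC1, the transmembrane nucleoporin that anchors the scaffold to the nuclear envelope, showed the largest fall of all members in both lines. Its signal was 282 and 308 in treated MM1S and 1229 and 899 in MM1S controls, a change of -1.73 ± 0.16 (adjusted p 2.2e-08). In OPM1 it was 58.5 and 64.9 with Zalypsis and 2455 and 2689.7 without, a change of -4.80 ± 0.16 (adjusted p 2e-15), so that the mean signal of the treated cells was 0.024 times that of the controls. Treated and control arrays lay far apart in both lines. Another NDC1 probe set also fell, at -0.65 in MM1S and -1.56 in OPM1, so the size of the fall differed between probe sets. NUP210, a membrane glycoprotein of the pore, had 112 and 74.7 in treated OPM1 and 818 and 663 in controls, a change of -2.63 ± 0.17 (adjusted p 1.1e-11). In MM1S it had 1526 and 1379 with Zalypsis and 1743 and 1764 without, at -0.27 ± 0.17, and was not called (adjusted p 0.222), though the arrays did not overlap. NUP210 was called lower in MM1S with the mean of probe sets (-0.45, adjusted p 0.006) and without _s_ and _x_ probe sets (-0.46, adjusted p 0.0399). A dimmer NUP210 probe set was called lower there by itself, at -0.95. POM121, the other membrane nucleoporin, was read by a dim probe set and has a near copy, POM121C, so its rise in OPM1 (0.36 ± 0.14, adjusted p 0.0288) is uncertain. That call was lost without OPM1 control 2 (0.24, adjusted p 0.217) and without OPM1 Zalypsis 2 (0.25, adjusted p 0.231).

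On the cytoplasmic side, NUP214 and NUP88, which form a complex that receives exported messenger RNA, fell in both lines. NUP88 had 367 and 362 in treated MM1S against 698 and 592 in controls, a change of -0.77 ± 0.15, and 123 and 141 in treated OPM1 against 963 and 975 in controls, a change of -2.61 ± 0.15 (adjusted p 2.1e-12). NUP214 was at -0.91 ± 0.15 in MM1S and at -2.44 ± 0.15 in OPM1. RANBP2, the long filament protein that holds RANGAP1 at the pore, had 1014 and 879 in treated and 975 and 981 in control MM1S, and was not called (adjusted p 0.829). In OPM1 it had 247 and 272 with Zalypsis and 929.6 and 814 without, a change of -1.63 ± 0.15 (adjusted p 4.3e-09). Its arrays overlapped in MM1S and were apart in OPM1, and its values are uncertain because the RGPD genes are near copies of it. Among its other probe sets 2 were called lower in MM1S, at -1.18 and -0.75. NUP42 and GLE1, which work together to release messenger RNA from the pore, rose in OPM1, by 0.62 ± 0.15 and 0.41 ± 0.16. NUP42 had 232 and 193 in treated and 109 and 115 in control MM1S, a rise of 0.76 ± 0.15 (adjusted p 0.00043), and GLE1 was not called there (-0.03 ± 0.16). GLE1 lost its OPM1 call without OPM1 control 2 (0.36, adjusted p 0.115), OPM1 Zalypsis 1 (0.37, adjusted p 0.138) or OPM1 Zalypsis 2 (0.45, adjusted p 0.0701).

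The basket reaches from the pore into the nucleus, and its 3 genes did not move together. NUP153, which ties the basket to the ring, had 506 and 477 in treated MM1S and 1049 and 923 in controls, a change of -0.96 ± 0.15 (adjusted p 3.1e-05). Treated OPM1 cells had 177 and 207 and OPM1 controls 1344 and 1178, a change of -2.53 ± 0.15 (adjusted p 5.1e-12). Treated arrays were below the controls in both lines. TPR, the coiled coil protein that forms the basket's filaments, had 1168 and 1411 in treated and 1394 and 1348 in control MM1S, which overlapped, and fell in OPM1, at -1.57 ± 0.15. Without _s_ and _x_ probe sets TPR was read by a dimmer probe set and called lower in MM1S (-0.51, adjusted p 0.0032). Its difference between the lines was not called in that setting (-0.335, adjusted p 0.147). NUP50, which helps importins let go of cargo, had 1364 and 1449 in treated OPM1 and 1002 and 972 in controls, a rise of 0.50 ± 0.15 (adjusted p 0.0057), and in MM1S it rose by 0.41 ± 0.15. Without OPM1 Zalypsis 2 the OPM1 value was 0.45 and not called (adjusted p 0.0565).

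**Figure D2:**
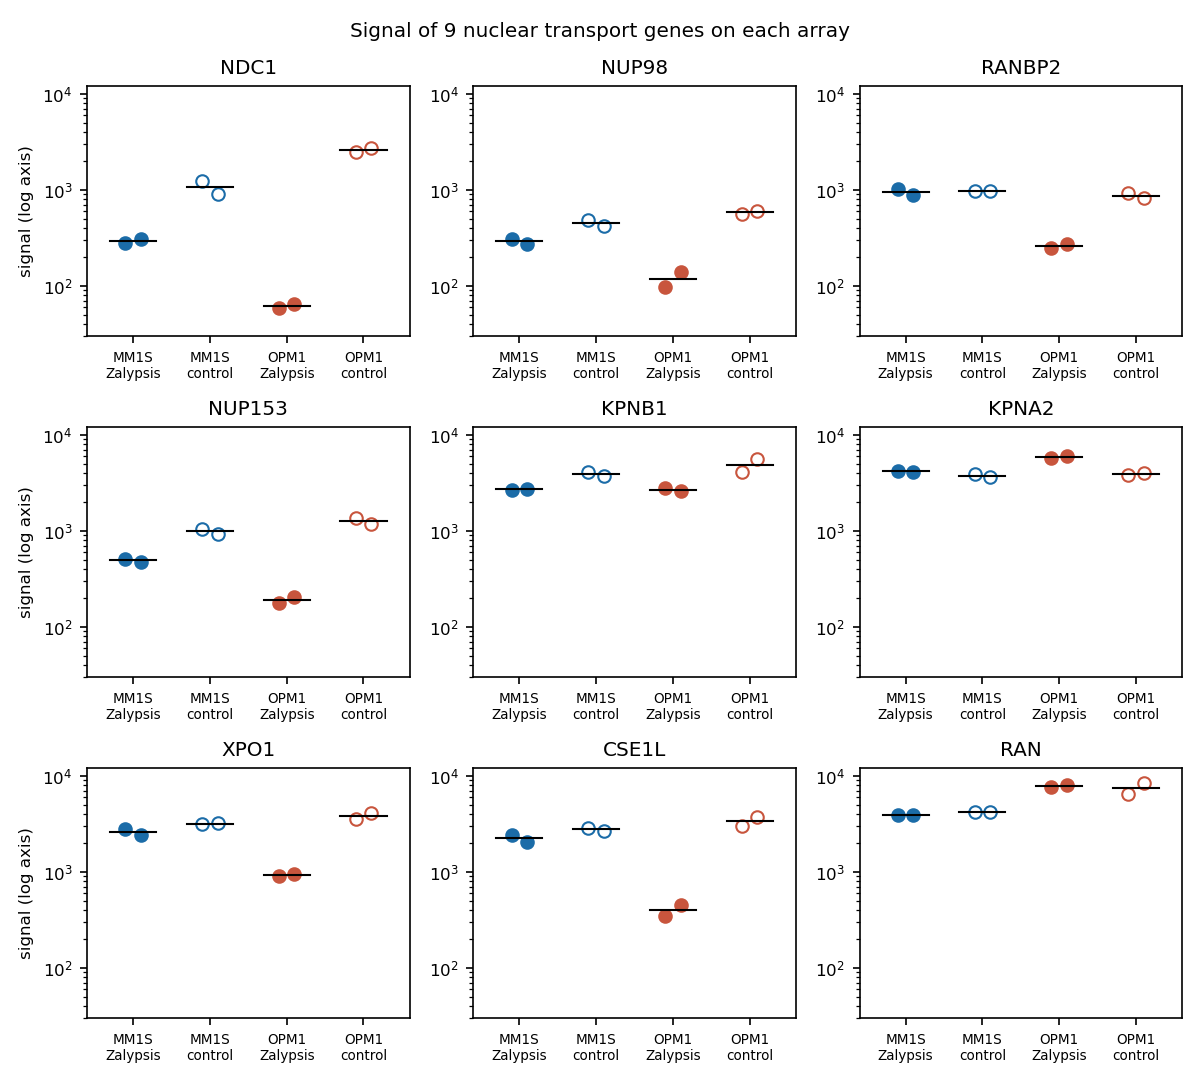
Signal of 9 members on each of the 8 arrays, on a log axis, by line and treatment. Each point is 1 array. NDC1 lies at 58.5 and 64.9 on the treated OPM1 arrays and at 2455 and 2690 on the OPM1 controls, while the RAN arrays of the 2 OPM1 groups overlap.

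The 6 importin alpha genes, whose proteins link cargo with a classical nuclear localisation signal to importin beta, divided in OPM1 into 5 that fell and KPNA2, which rose on the deposited scale and was lower after spike-in scaling. KPNA2, the member tied most closely to dividing cells, had 5669 and 5966 in treated OPM1 and 3762 and 4008 in controls, a change of 0.58 ± 0.10 (adjusted p 5.3e-05). In MM1S it had 4157 and 4117 with Zalypsis and 3863 and 3594 without, at 0.15 ± 0.10, and was not called (adjusted p 0.285). The treated arrays lay above the controls in both lines. KPNA3 had 318 and 316 in treated and 597 and 521 in control MM1S, a change of -0.76 ± 0.15 (adjusted p 0.00053). Its OPM1 signals were 201 and 243 with Zalypsis and 2009.9 and 1699 without, a change of -2.89 ± 0.15 (adjusted p 9.2e-13). Its treated OPM1 arrays lay below the treated MM1S arrays, although OPM1 controls were the brightest. KPNA1, KPNA4, KPNA5 and KPNA6 fell in OPM1, with changes between -0.92 and -0.47. The KPNA1 call was lost without OPM1 control 1 (-0.28, adjusted p 0.185) and without OPM1 Zalypsis 2 (-0.30, adjusted p 0.189), and after quantile normalization (-0.08, adjusted p 0.668).

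Of the 10 tested genes of the importin beta family, 7 fell and IPO13 rose in OPM1, and 3 fell and IPO13 rose in MM1S. KPNB1, importin beta itself, had 2679 and 2753 in treated MM1S and 4089.8 and 3677 in controls, a change of -0.51 ± 0.13 (adjusted p 0.0039). Treated OPM1 cells had 2758 and 2602 and OPM1 controls 4122 and 5548, a change of -0.83 ± 0.13 (adjusted p 1e-05). Treated arrays were below the controls in both lines. The MM1S call was lost with the mean of probe sets (-0.28, adjusted p 0.0629), without _s_ and _x_ probe sets (-0.09, adjusted p 0.71) and with poly-A scaling (adjusted p 0.0876). IPO8, which is known for carrying Argonaute and SMAD proteins, had 369.8 and 297 in treated MM1S against 924 and 715 in controls, a change of -1.22 ± 0.16 (adjusted p 2.6e-06), and fell in OPM1, at -2.48 ± 0.16. TNPO3, the importer of splicing factors rich in serine and arginine, fell in both lines, at -0.91 ± 0.16 in MM1S and -1.49 ± 0.16 in OPM1. IPO13, a receptor that works in both directions, had 379 and 367 in treated OPM1 and 216 and 231 in controls, a rise of 0.67 ± 0.15 (adjusted p 0.00069), with 0.46 ± 0.15 in MM1S. IPO4 and TNPO2 were at 0.11 ± 0.16 and -0.08 ± 0.16 in OPM1 and were not called in either line. After quantile normalization IPO4 was called higher in OPM1 (0.43, adjusted p 0.0115). TNPO2 was called higher there without _s_ and _x_ probe sets (0.53, adjusted p 0.0037). Poly-A scaling called both lower in OPM1.

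The 7 exportins were all called lower in OPM1, with a median change of -2.05, and 5 of 7 fell in MM1S, with a median of -0.66. XPO4 had 71.3 and 65.0 in treated MM1S and 196 and 206 in controls, a change of -1.22 ± 0.13 (adjusted p 2.3e-07). Its OPM1 signals were 51.9 and 40.4 with Zalypsis and 584 and 496 without, a change of -2.87 ± 0.13 (adjusted p 1e-13). XPO6, which exports profilin and actin, had 279 and 277 in treated OPM1 and 1915 and 1954 in controls, a change of -2.67 ± 0.14, and fell in MM1S, at -0.92 ± 0.14. Both genes had treated arrays well below the controls. XPO5, the exporter of precursor microRNAs, fell in both lines, at -0.72 ± 0.15 in MM1S and -2.05 ± 0.15 in OPM1, and XPOT, the exporter of transfer RNA, was at -0.66 ± 0.14 and -1.97 ± 0.14. XPO7 fell in MM1S (-0.50 ± 0.18), a call that was lost without MM1S control 1 (-0.32, adjusted p 0.241) and without MM1S Zalypsis 1 (-0.36, adjusted p 0.259).

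XPO1 and CSE1L were called lower in OPM1 and missed the threshold in MM1S, and their difference between the lines was itself called (adjusted p 1.9e-07 and 5.6e-09). XPO1 had 894 and 942 in treated OPM1 and 3527 and 4044 in controls, a change of -2.00 ± 0.13 (adjusted p 1.6e-11). In MM1S it had 2781 and 2399 with Zalypsis and 3125 and 3192 without, at -0.29 ± 0.13 (adjusted p 0.0872). CSE1L, which returns importin alpha to the cytoplasm, had 347 and 456 in treated OPM1 and 3006 and 3671 in controls, a change of -2.96 ± 0.15 (adjusted p 5.4e-13). In MM1S it had 2411 and 2031 with Zalypsis and 2849 and 2671 without, at -0.31 ± 0.15 (adjusted p 0.116). For both genes the MM1S arrays were apart by a margin too small for a call. Another CSE1L probe set was called lower in both lines, at -0.44 in MM1S and at -3.23 in OPM1. Other settings called both lower in MM1S: XPO1 after quantile normalization (-0.25, adjusted p 0.0282), and CSE1L with the mean of probe sets (adjusted p 0.0334), without _s_ and _x_ probe sets (adjusted p 0.0185) and with the MM1S arrays fitted alone (adjusted p 0.049).

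Within the Ran cycle, RAN had 7534 and 8077 in treated OPM1 and 6448 and 8312 in controls, which overlapped, and its change of 0.09 ± 0.11 was not called (adjusted p 0.498). In MM1S it had 3903 and 3882 with Zalypsis and 4169 and 4199.7 without, at -0.10 ± 0.11 (adjusted p 0.508). With all 8 arrays RAN alone of the 4 was called in neither line, but without OPM1 control 2 it was higher in OPM1, at 0.27 (adjusted p 0.0185), and its difference between the lines was 0.38 (adjusted p 0.0166). RANGAP1 and RCC1 fell in both lines, at -0.53 ± 0.17 and -0.48 ± 0.15 in MM1S and at -1.04 ± 0.17 and -1.31 ± 0.15 in OPM1. The MM1S calls were fragile: without MM1S control 1 RANGAP1 was at -0.31 (adjusted p 0.233) and RCC1 at -0.42 (adjusted p 0.0871), without MM1S Zalypsis 1 RCC1 was at -0.33 (adjusted p 0.237), and without MM1S Zalypsis 2 RANGAP1 was at -0.39 (adjusted p 0.162). RANBP1 had 3438 and 3074 in treated OPM1 and 1317 and 2117 in controls, a rise of 0.95 ± 0.17 (adjusted p 4.1e-05), whereas another of its probe sets fell in OPM1, at -0.83. In MM1S RANBP1 had 2645 and 2473 with Zalypsis and 3545 and 2863 without, at -0.31 ± 0.17 (adjusted p 0.153). With the MM1S arrays fitted alone, RANBP1 was called lower there (adjusted p 0.038).

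Nuclear pore genes were compared with importins and exportins by their counts and medians. In MM1S 12 of 29 pore genes fell and 3 rose, with a median of -0.27, and 9 of 23 receptors fell and 1 rose, with a median of -0.31. In OPM1 22 pore genes fell and 6 rose, with a median of -1.63, and 19 receptors fell and 2 rose, with a median of -1.49. The pore median minus the receptor median was 0.05 in MM1S, where it differed between arrays of a group with an SD of 0.013, and -0.14 in OPM1, with an SD of 0.058. With the mean of all probe sets of a gene the OPM1 value was 0.16. Without _s_ and _x_ probe sets, which can read several transcripts or genes, it was 0.63. That setting tested only 44 members, so it changed the genes compared as well as their probe sets. The order of the classes thus depended on the probe sets and genes used. No p is given, because members are not replicates.

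**Figure D3:**
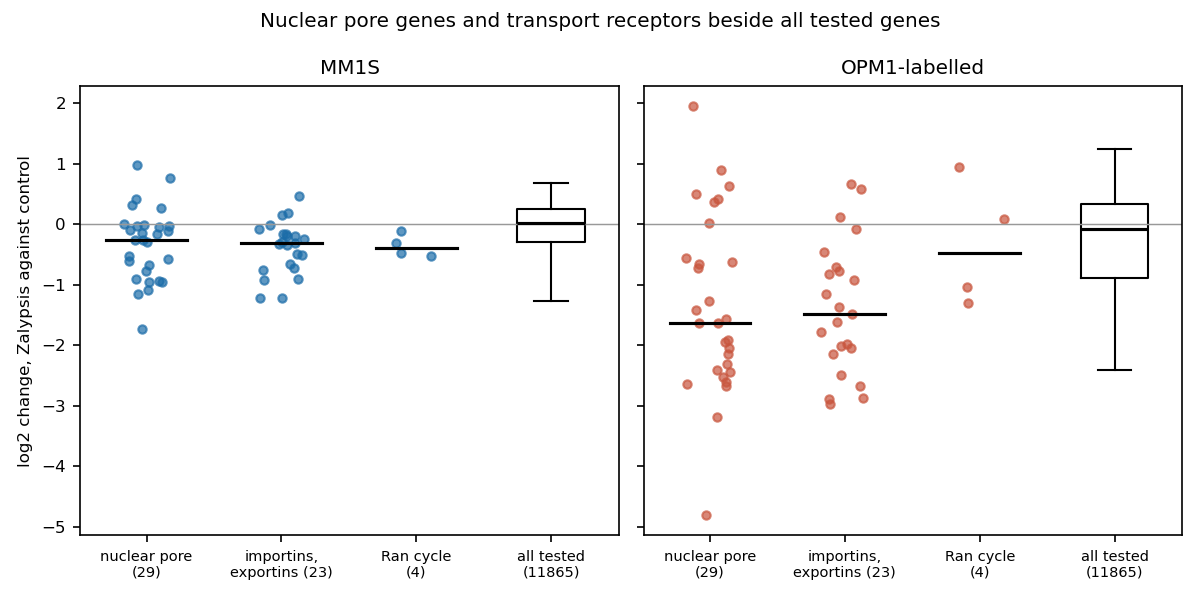
Log2 change of tested nuclear pore genes (29), receptors (23) and Ran cycle genes (4), with a line at each median, beside all 11865 tested genes as a box with whiskers from the 5th to the 95th percentile, in MM1S and OPM1. The pore and receptor medians lie close together, at -0.27 and -0.31 in MM1S and at -1.63 and -1.49 in OPM1, below the medians of all tested genes at 0.02 and -0.07.

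The response differed between the lines for 43 of 56 members, tested as OPM1 minus MM1S. It was lower in OPM1 for 39 and higher for 4, where 47.6% of all tested genes were called, 31.7% lower and 15.8% higher. NDC1 differed the most, at -3.07 ± 0.23 (adjusted p 1.6e-09), followed by CSE1L at -2.65 ± 0.22, NUP210 at -2.37 ± 0.23, SEH1L at -2.24 ± 0.21 and KPNA3 at -2.14 ± 0.22. NUP107, NUP205 and NUP88 were at -2.01 ± 0.24, -2.00 ± 0.21 and -1.84 ± 0.21. The 4 with a higher response in OPM1 were RANBP1 (1.26 ± 0.24), SEC13 (1.04 ± 0.22), NUP58 (0.96 ± 0.22) and KPNA2 (0.43 ± 0.15). With the mean of probe sets RANBP1 (0.32, adjusted p 0.104) and NUP58 (-0.28, adjusted p 0.19) lost this call. The KPNA2 difference lost its call in 5 of the 8 fits that left out 1 array, with values of 0.38 to 0.47. With poly-A scaling, in which the MM1S spike-ins were at background, 54 members and 87.8% of all tested genes were called lower. All 4 of these genes turned negative there, with NUP58 and KPNA2 called and SEC13 (adjusted p 0.121) and RANBP1 (adjusted p 0.195) not called.

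Before treatment, 17 members were higher and 11 lower in OPM1 controls than in MM1S controls, with a median difference of 0.24 on the log2 scale, where 64.8% of all tested genes were called, 29.0% higher and 35.8% lower. After quantile normalization 31 were higher and 10 lower, and 33.9% and 32.2% of all tested genes were. Among the receptors 9 were higher and 4 lower, and among the pore genes 7 were higher and 5 lower. KPNA5, an importin alpha, had 444 and 399 in OPM1 controls and 58.1 and 71.1 in MM1S controls, a difference of 2.23 ± 0.13 (adjusted p 3e-12). KPNA3 was higher in OPM1 controls by 1.67 ± 0.15, NUP58 by 1.54 ± 0.15, XPO4 by 1.29 ± 0.13 and NDC1 by 1.26 ± 0.16, from the control signals given above. IPO4, an importer of histones and ribosomal proteins, had 587 and 458 in OPM1 controls and 208 and 168 in MM1S controls, a difference of 1.33 ± 0.16 (adjusted p 2.3e-07). SEC13 and NUP210 were lower in OPM1 controls, at -1.53 ± 0.15 and -1.22 ± 0.17. In these 8 genes the control arrays of the lines did not overlap, but they were picked as the largest called differences, so this adds no further support.

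Probe sets of the same gene differed in some members. Of 153 tested probe sets of the members, 12 were called higher and 52 lower in MM1S, and 23 higher and 104 lower in OPM1, while 12.7% and 19.8% of all 24652 tested probe sets were called higher and lower in MM1S, and 22.1% and 36.2% in OPM1. Of the 44 genes with more than 1 tested probe set, 2 had probe sets called in opposite directions in MM1S (NUP153 and NUP160) and 8 in OPM1 (IPO5, NUP153, NUP160, NUP43, NUP50, NUP58, RANBP1 and XPO1). Beside its falling brightest probe set, NUP153 had a dim one at 0.56 in MM1S and 1.11 in OPM1, and NUP160 had one at 0.92 in MM1S and 0.76 in OPM1. Another NUP160 probe set was called higher in MM1S, at 0.75, and not called in OPM1. In MM1S 2 of the 3 NUP160 probe sets thus rose. XPO1 likewise had a dimmer probe set that rose by 0.70 in MM1S and by 0.43 in OPM1, where the brightest was at -2.00. For IPO5, 4 probe sets fell and 1 rose in OPM1, and for NUP50, 4 rose and 1 fell. With the mean of probe sets, calls were lost in MM1S for NUP133 (-0.26, adjusted p 0.131), NUP88 (-0.24, adjusted p 0.051), NUP153 (-0.24, adjusted p 0.0812), NUP50 (0.26, adjusted p 0.128), XPO7 (-0.43, adjusted p 0.0623) and RANGAP1 (-0.50, adjusted p 0.113). In OPM1 they were lost for NUP58 (0.12, adjusted p 0.389), RANGAP1 (-0.51, adjusted p 0.0726) and RANBP1 (0.18, adjusted p 0.158). The same setting also added 8 calls in MM1S: NUP37, NUP210, RANBP2, KPNA1, KPNA6, IPO7 and CSE1L were lower and IPO9 was higher. It called 28 members in MM1S, against 27 by the brightest probe sets. In OPM1 it added NUP54, which was higher. NUP214, without _s_ and _x_ probe sets, was at 0.25 in MM1S and 0.18 in OPM1, not called in either. A dimmer NUP214 probe set, also not of the _s_ or _x_ kind, was called lower in both, at -0.54 and -2.27. Which transcripts each probe set reads was not tested.

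**Figure D4:**
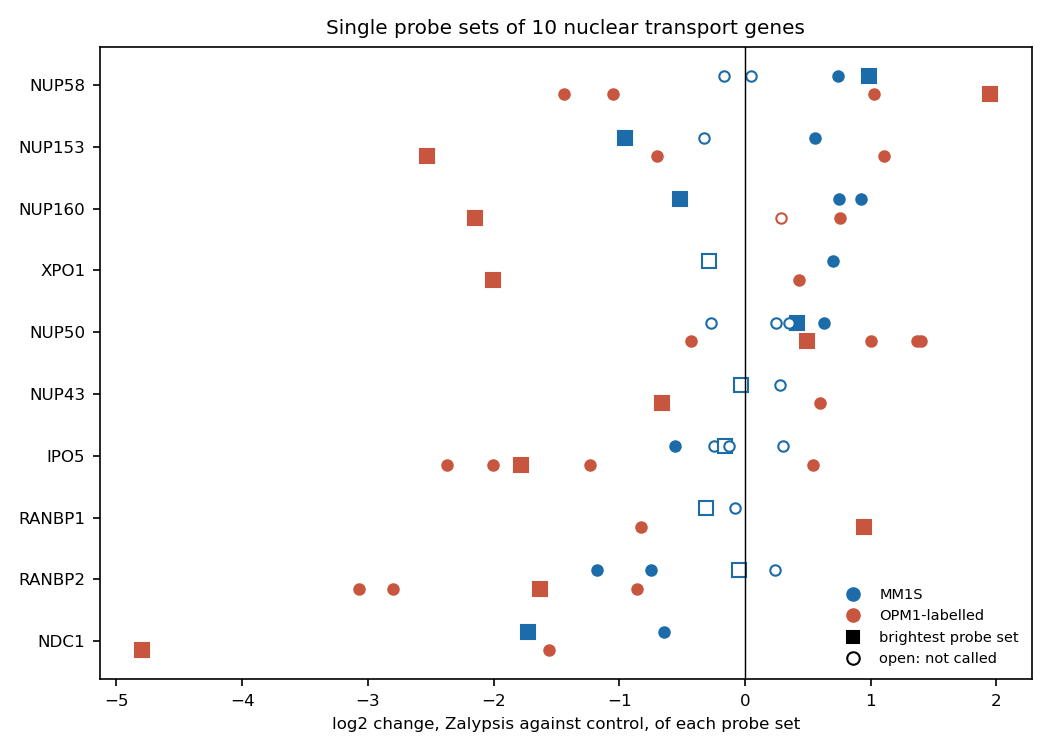
Log2 change of each tested probe set of 10 members, Zalypsis against control, in MM1S and OPM1. Squares mark the brightest probe set, which stands for the gene elsewhere, and open points were not called. The NDC1 probe sets lie left of 0 in both lines, while NUP58, NUP50 and XPO1 have probe sets on both sides of 0 in OPM1.

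Members spanned more of the genome than other genes, and those with a longer span had lower median changes. The median span in RefSeq was 59.1 kb for the tested members and 28.3 kb for all tested genes. The 19 members with the shortest spans (5.61 to 39.5 kb) had a median change of -0.08 in MM1S and 0.02 in OPM1, while all tested genes in that range had 0.13 and 0.09. The 18 members in the middle range (44.2 to 70.4 kb) had -0.32 and -1.93, and all tested genes there -0.08 and -0.49. For the 19 longest (70.6 to 1120 kb) the members had -0.67 and -2.05, and all tested genes -0.54 and -1.09. Spearman's rho between span and change was -0.52 in MM1S and -0.62 in OPM1 across the members, and -0.50 and -0.49 across all tested genes. These values are across genes, which share arrays and are not independent replicates. The top of the longest range is the RefSeq record of RANBP2, which is far longer than that of the other members and may not be the length that is transcribed.

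**Figure D5:**
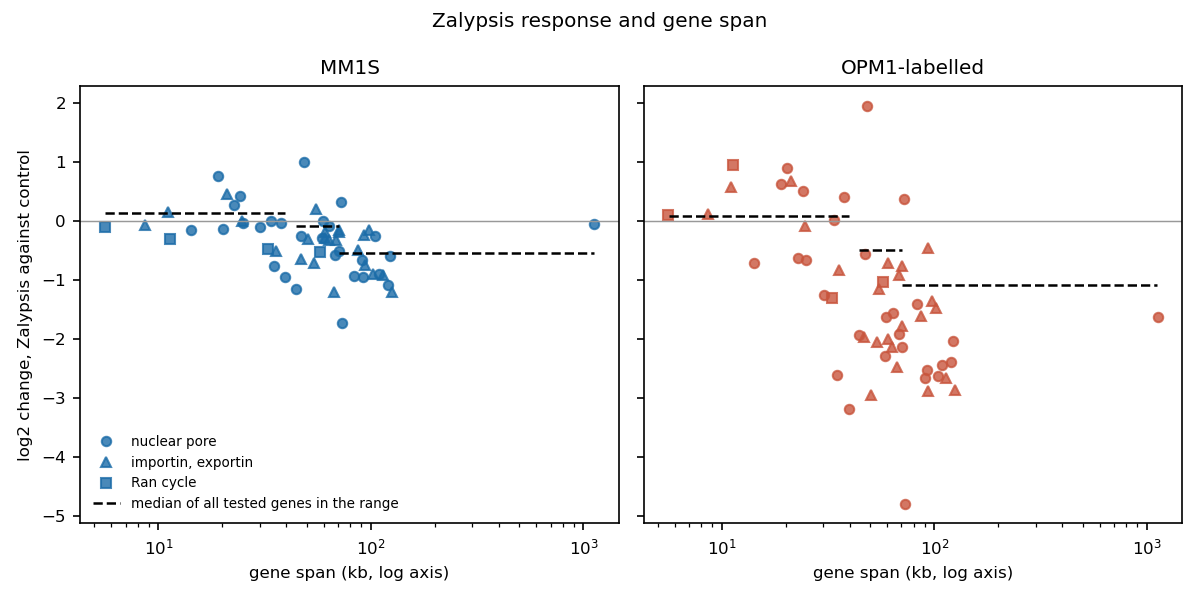
Log2 change, Zalypsis against control, by gene span in kb on a log axis, for members by class, in MM1S and OPM1. Dashed lines mark the median of all tested genes in each span range. Medians are near 0 for the members with the shortest spans and at -0.67 in MM1S and -2.05 in OPM1 for those with the longest, with exceptions such as SEH1L at 39.5 kb and -3.19 and POM121 at 72.1 kb and 0.36 in OPM1.

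Transport genes outside the members were counted in 3 lists. Among 12 tested genes of other pore and karyopherin functions, of 18 listed, 1 rose and 2 fell in MM1S and 6 rose and 6 fell in OPM1. The shares of all tested genes called higher and lower, for these 3 lists too, were 16.6% and 21.7% in MM1S and 25.5% and 39.0% in OPM1. RANBP3, a cofactor of XPO1, fell in both lines, at -0.60 in MM1S and -1.58 in OPM1, and SENP1, a SUMO protease found at the pore, was at -0.71 and -1.31. NCBP2, a subunit of the cap-binding complex, had the largest rise of the list and was named for it after values were seen, at 0.39 in MM1S and 1.22 in OPM1. Among 14 tested genes of messenger RNA export, of 20 listed, 5 were called in MM1S, each lower, and in OPM1 8 fell and 1 rose. THOC2, a subunit of the TREX complex, was at -0.89 and -2.51, and DDX39A, an export helicase, at -1.04 and -1.76, called lower in both lines. Among 16 tested genes of the nuclear lamina and envelope, of 17 listed, 3 rose and 6 fell in MM1S, and 5 rose and 8 fell in OPM1. SYNE2, which links the nucleus to the cytoskeleton, fell in both, at -1.80 and -1.45. LMNB1, a B-type lamin, fell in OPM1, at -2.11, and was not called in MM1S, at -0.38. LMNA, the A-type lamin, rose in both lines, at 1.03 in MM1S and 0.46 in OPM1.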

How the data were processed

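RNA of 8 samples was read on 8 arrays. The deposited intensity values, on a linear scale, came from the authors' dChip analysis per the series' design text, with version, normalization and probe model not given in the sources used here. Per the labels' protocols, 100 ng of RNA was amplified in 2 cycles and labelled with biotin. Arrays have no depth, and the precision is limited by their number.

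Of 54675 probe sets, 62 were controls, 41091 carried 1 gene symbol, 1801 several and 11721 none, and those with 1 symbol were used. Values were kept as normalized by the authors and turned into log2(value + 32), which understates changes of dim genes. The brightest probe set stood for a gene, and the dimmest 40% of 19775 genes (mean signal under 28.9) were left out, leaving 11865. With limma 3.58.1 (R 4.3.3), 1 mean per group was fitted over all 8 arrays by lmFit and moderated by eBayes with a trend, with 4 residual degrees of freedom and a prior of 16.2. P-values were adjusted by Benjamini-Hochberg over all tested genes of a contrast and called under 0.05.

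The members, the other gene lists and the tests were chosen with earlier results of these data known. Array values are given for the 8 largest called changes of each contrast and for NDC1, NUP98, RANBP2, NUP153, KPNB1, KPNA2, XPO1, CSE1L and RAN. Other members were named with array values where their role called for it, after values were seen. Each member called higher is named, and at most 3 genes of each other list. Alternatives changed the normalization, scaling, pseudocount, filter, probe sets, samples in the fit and the replicate block, and left out each array in turn. Testing each probe set by itself was added after seeing the data. In 10 simulated draws, limma recovered a log2 change of 1 in 99.9% of the changed genes for MM1S, 99.6% in OPM1 and 89.1% for the difference, each among 11865 genes. For a log2 change of 0.5 these shares were 49.3%, 47.9% and 12.7%, and false calls made up 7.49%, 6.65% and 5.63% of all calls. The draws changed a much smaller share of genes than was called in these data. Recovery can differ with that share, so these values are not the sensitivity of the tests reported here.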

Additional observations from a re-analysis of the deposited data

Results flagged for a closer look

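The response to Zalypsis differed between the lines, by limma's test of the difference itself (OPM1 minus MM1S), for 43 of the tested members. The log2 differences were -3.07 for NDC1, -2.65 for CSE1L, -2.37 for NUP210, -2.24 for SEH1L, -2.14 for KPNA3, -2.01 for NUP107, -2.00 for NUP205 and -1.84 for NUP88. XPO1 was at -1.72, RANBP2 at -1.58, NUP153 at -1.57 and NUP98 at -1.45. The difference was positive for RANBP1 at 1.26, SEC13 at 1.04, NUP58 at 0.96 and KPNA2 at 0.43.

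In control probe sets, which were kept out of the gene tests and served only to scale arrays in 1 alternative, the poly-A geometric mean was 1862 and 1349 on the treated OPM1 arrays, above the 299.7 and 448 of the OPM1 controls. The 28S ribosomal RNA signal was 11465 and 9325 on those treated arrays, above the 1071 and 1327 of the controls. Their part in the members' changes was not tested.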

How the results depend on the processing

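The number of members called kept within 1.5 times of 27 (MM1S), 52 (OPM1), 43 (OPM1 minus MM1S) and 28 (untreated lines), except that the 2-fold rule of the design text gave 9 in MM1S (1 higher, 8 lower). Leaving out 1 array gave 22 to 25, 48 to 51, 35 to 42 and 29 to 30 members, in that order. The same-numbered arrays correlated in their deviations from the group means at 0.214 and 0.202 within a line and at -0.129 to -0.012 between lines, and with 2 arrays a group these values could not show whether the numbers pair arrays within a line. With the replicate block 28, 52, 43 and 32 members were called. The pore median minus the receptor median in MM1S was 0.034 with no filter, 0.098 with the mean of probe sets, 0.165 without _s_ and _x_ probe sets, and 0.042 to 0.147 without 1 array. In OPM1 it was -0.001 after quantile normalization, -0.20 with no filter, 0.159 with the mean, 0.626 without _s_ and _x_ probe sets, and -0.233 to -0.01 without 1 array.

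Scaling to the poly-A controls turned the sign of the OPM1 change of SEC13 (-1.11), NUP58 (-0.99), NUP54 (-2.02), POM121 (-1.10), NUP42 (-1.16), GLE1 (-1.57), NUP50 (-1.56), KPNA2 (-1.52), IPO4 (-1.88), IPO13 (-1.23), RAN (-2.01) and RANBP1 (-1.14). It also turned the difference between the lines, in which the MM1S spike-ins were at background, for SEC13 (-0.74), NUP58 (-1.56), NUP54 (-1.80), POM121 (-1.33), GLE1 (-1.32), NUP50 (-1.75), KPNA2 (-1.45), IPO4 (-1.61), IPO13 (-1.49), RAN (-1.69) and RANBP1 (-0.60). This scaling was not run between untreated lines, because the poly-A controls of MM1S lay near the median signal. With the mean of probe sets NUP160 was called higher in MM1S, at 0.38, and NUP58 was at -0.28 for the difference. Between untreated lines the same setting gave 0.54 for NUP160 and 0.33 for RANBP2. Without _s_ and _x_ probe sets NUP54 was at 0.63 and NUP214 at 0.25 in MM1S, NUP214 at 0.18 and TNPO2 at 0.53 in OPM1, TNPO2 at 0.63 for the difference, and NUP54 at -0.32, RANBP2 at 0.46, KPNA1 at 0.06, KPNB1 at -0.57, TNPO2 at -0.73 and RAN at -0.40 between untreated lines. The cause of these reversals was not tested beyond the change of probe sets or scale itself. With 2 arrays a group, smaller changes are limited by signal over background and by array number.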
